A study of Homo sapiens with 4 samples.

Results

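Of the genes that pattern body plans, 3 families of transcription factors were followed in T24 cells, a human bladder carcinoma line, after forced expression of the catalytic domain of TET1. The members were all genes whose symbol is SOX, FOX or TBX followed by the usual letter and number, with 1 symbol left out, and they amounted to 76 of the 57879 genes in the files. They comprised 43 FOX, 20 SOX and 13 TBX entries, and SOX7 was listed under 2 gene identifiers, so that 75 symbols were covered. Their 286 transcripts were part of 195700 transcripts for which RNAseq values were deposited. Cells labelled control carried an empty vector (EV), and the others were labelled as expressing TET1-CD, the catalytic domain on a FLAG-tagged pCDH vector. Both kinds of cells had been infected with lentivirus and selected with puromycin, and each group had 2 libraries. The sources used here do not say whether the libraries came from separate cultures or separate infections, so p-values measure only the spread between these libraries. Cells with the inactive mutant of the domain were not analysed here, so TET1 activity and the presence of the protein cannot be told apart.

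Each family is defined by the domain with which it binds DNA. SOX factors carry an HMG box that bends the DNA, FOX factors carry the winged-helix forkhead domain, and TBX factors carry a T-box. They set cell identity in the embryo and many are silent in an adult epithelium, often under repressive chromatin and, at CpG-rich promoters, DNA methylation. TET enzymes oxidize the methyl group of 5-methylcytosine in CpG dinucleotides, which is a step of demethylation. Methylation was not measured in these libraries.

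Because CpG is the dinucleotide on which TET1 acts, promoter sequences are shown for 4 members that passed the test, FOXD1 and TBX1, which were higher in TET1-CD cells, and FOXF2 and SOX12, which were lower. The sequences are from RefSeq on GRCh38.p14 and run 5′ to 3′ on the strand of the gene, from 250 bases before the start to 50 bases after it. Each capital CG marks a CpG, a motif that reads the same on both strands and cannot overlap itself.
FOXD1, chr5:73448728-73449027, minus strand: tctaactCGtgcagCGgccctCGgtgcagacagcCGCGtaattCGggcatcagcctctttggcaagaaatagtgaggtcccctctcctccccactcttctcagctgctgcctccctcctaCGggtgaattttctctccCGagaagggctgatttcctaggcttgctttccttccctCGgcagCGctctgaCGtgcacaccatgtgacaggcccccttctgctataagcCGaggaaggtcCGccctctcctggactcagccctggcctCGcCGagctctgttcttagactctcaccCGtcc
TBX1, chr22:19756453-19756752, plus strand: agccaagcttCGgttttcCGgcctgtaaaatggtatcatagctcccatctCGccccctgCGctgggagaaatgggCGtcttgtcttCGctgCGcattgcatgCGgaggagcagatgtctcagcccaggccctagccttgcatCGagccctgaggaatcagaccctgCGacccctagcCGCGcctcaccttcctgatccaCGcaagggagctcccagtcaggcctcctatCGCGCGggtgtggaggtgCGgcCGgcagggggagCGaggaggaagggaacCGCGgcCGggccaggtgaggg
FOXF2, chr6:1389326-1389625, plus strand: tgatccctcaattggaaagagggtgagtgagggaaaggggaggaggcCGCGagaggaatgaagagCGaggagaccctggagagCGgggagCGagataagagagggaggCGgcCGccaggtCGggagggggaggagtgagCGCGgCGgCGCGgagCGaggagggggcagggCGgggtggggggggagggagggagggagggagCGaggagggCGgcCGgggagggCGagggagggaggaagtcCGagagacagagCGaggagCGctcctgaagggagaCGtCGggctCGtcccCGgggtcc
SOX12, chr20:325302-325601, plus strand: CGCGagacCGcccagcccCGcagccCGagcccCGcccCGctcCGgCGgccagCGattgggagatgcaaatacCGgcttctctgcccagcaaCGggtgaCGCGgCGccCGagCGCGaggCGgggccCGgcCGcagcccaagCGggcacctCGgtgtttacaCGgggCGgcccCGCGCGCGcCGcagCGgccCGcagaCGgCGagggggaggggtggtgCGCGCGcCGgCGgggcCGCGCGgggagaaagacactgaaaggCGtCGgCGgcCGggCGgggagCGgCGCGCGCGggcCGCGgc

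The FOXD1 window held 16 CpGs, that of TBX1 22, that of FOXF2 26 and that of SOX12 54. Of the 35116 promoters of this length in the RefSeq table, 47.5% had at least as many CpGs as FOXD1, 37.7% as many as TBX1, 30.1% as many as FOXF2 and 0.464% as many as SOX12. FOXN3, another member that was lower, had 42 CpGs, and 5.85% of promoters had at least as many. Windows were matched to genes by symbol. Whether that of FOXN3 is the start of ENST00000261302, which took 64.7% to 90.5% of its fragments, was not tested. Promoters were thus on hand for 2 of the 3 members that rose and 3 of the 4 that fell, and the first 2 had fewer CpGs than the other 3. The 70 promoters of members in the table, which covered 52 of the 75 symbols, had a median of 22 CpGs, against 14 for all promoters. Promoters of tested members had a median of 29, against 25 for genes tested. A gene with several listed starts counts once for each of them. Tested members that did not pass had a median of 30.5, so CpG-rich promoters were common among tested members. Members without any fragment in the files had a median of 18. FOXF1 and FOXL1 were not in the table.

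Libraries held 17442143 to 20295266 fragments, and 0.110% to 0.117% of them fell on the members. A count of 3 fragments corresponded to 0.148 to 0.172 CPM, counts scaled to the library total, and intervals given below for low counts cover counting error only. TET1 itself had 111 and 83 fragments in EV cells and 2939 and 3310 in TET1-CD cells, which included those of the vector, and its log2 fold change was 5.02 (standard error, SE, 0.08, edgeR adjusted p = 4.9e-10). Among 19 urothelial markers, 10 were tested, 5 rose and 1 fell, while 19.7% of all genes tested were called. KRT20 and KRT5 were listed at 0 in every library. With them, 8 of the 19 never exceeded 3 fragments, among them UPK1A, UPK1B, UPK3A, KRT14 and TP63. KRT7, KRT8 and KRT18 were abundant, and of these KRT7 and KRT18 rose while KRT8 was not called (log2 fold change -0.08, SE 0.05). ELF3, the 1 that fell, had a log2 fold change of -0.54 (SE 0.15, edgeR adjusted p = 0.0361). KRT17, a basal keratin, had 77 and 83 fragments in EV against 725 and 831 in TET1-CD. Of 6 fibroblast markers, COL1A1 was the only one tested, with 88 and 70 fragments in EV against 266 and 314 in TET1-CD, and each of the others had at most 4 fragments in a library. The summed level of the list was 1.21 to 1.5 FPKM in EV and 3.46 to 4.49 FPKM in TET1-CD cells. Markers of leukocytes, endothelium and muscle summed to less than 1 FPKM for each list in each library, with none of them called.

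Many of the family genes had no fragments or only a few. Of the 76 members, 24 were listed at 0 in all 4 libraries, 8 never exceeded 3 fragments, 7 exceeded 3 fragments but were too low to test, and 37 were tested. That is 48.7% of the members, compared with 25.2% of all genes in the files. With no filter, 52 of the 76 members and 25160 of all 57879 genes had at least 1 fragment. The members were thus detected more often than genes at large. By family, 22 of 43 FOX, 9 of 20 SOX and 6 of 13 TBX entries were tested, with both SOX7 entries counted. SOX2, the pluripotency and neural factor, had 1 fragment in a single library, and its relatives SOX1 and SOX3 had none. Equally at 0 were SOX17, the endoderm and endothelial factor, SOX11 of the SOXC group, and TBX5 and TBX18, which act in the heart and the ureter mesenchyme. TBX21, which directs type 1 helper T cells, was at 0 as well, and so was FOXJ1, the factor of ciliated cells. FOXD3, a neural crest factor, and all of the FOXB, FOXI and FOXR genes were also without a fragment. The genes at 0 were thus not detected with TET1-CD either, at a depth where 3 fragments would correspond to 0.154 to 0.171 CPM.

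**Figure D1:**
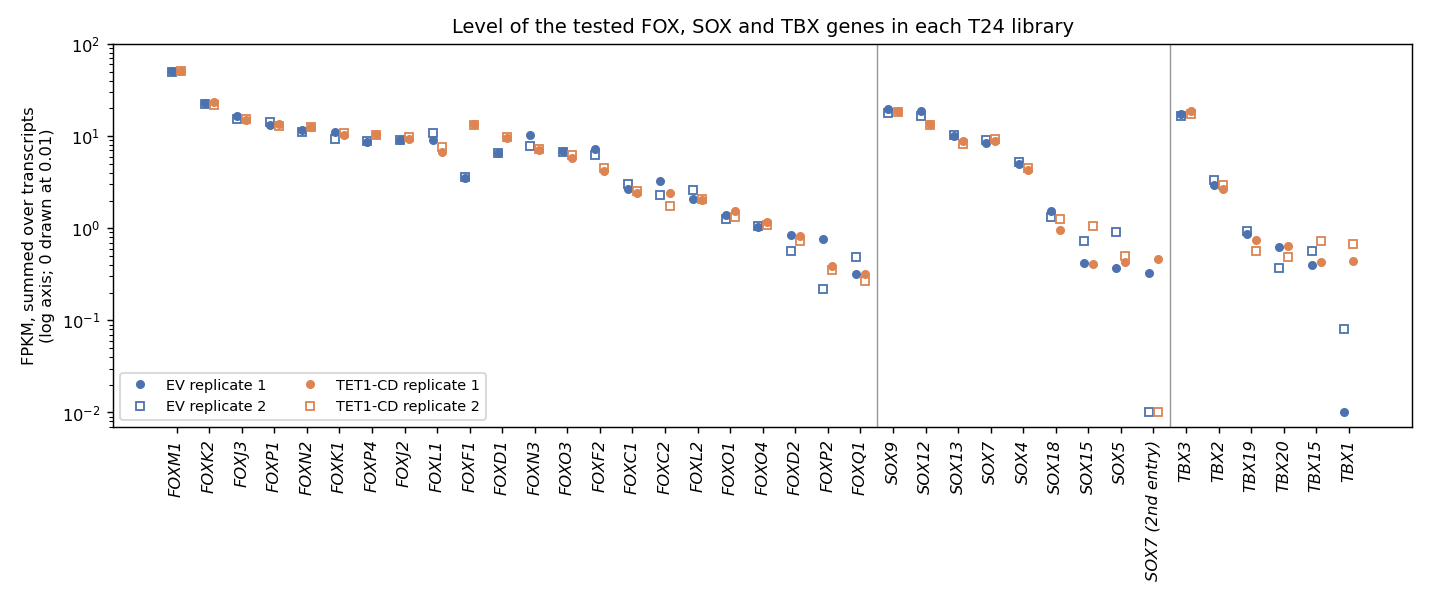
FPKM of the 37 tested members in each library on a log axis, ordered by mean within the FOX, SOX and TBX families, with EV in blue, TET1-CD in orange, filled circles for replicate 1 and open squares for replicate 2, and values of 0 drawn at 0.01. FOXM1 sits at 50.06 to 51.49 in all libraries, and of the genes above 3 FPKM, FOXF1 shows the widest gap between the groups.

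On the length-scaled FPKM scale, 19 of the 37 tested members had a mean of 5 or more. FOXM1, which drives the mitotic gene programme of cycling cells, had the highest level, with 51.49 and 50.06 FPKM in EV against 51.15 and 50.54 in TET1-CD. FOXK2, a forkhead factor found in most tissues, followed with 23.11 and 22.20 FPKM in EV against 23.73 and 21.70 in TET1-CD, and FOXJ3 had 14.79 to 16.49 FPKM over the 4 libraries. The most abundant SOX gene was SOX9, a factor of progenitor cells and cartilage, with 19.61 and 17.61 FPKM in EV against 18.65 and 18.47 in TET1-CD. TBX3, a transcriptional repressor of the TBX2 group, led its family with 17.29 and 16.72 FPKM in EV against 18.57 and 17.45 in TET1-CD. For FOXM1, FOXK2 and SOX9 the spread within a group was as large as the gap between groups or larger on this scale. By family, 14 FOX, 4 SOX and 1 TBX genes had a mean of 5 FPKM or more.

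Of the 37 tested members, 7 passed an adjusted p of 0.05 (edgeR's quasi-likelihood test), which is 18.9%, compared with 19.7% of all 14573 genes tested. FOXF1, FOXD1 and TBX1 were higher in TET1-CD cells, against a background of 10.0% of genes called higher. SOX12, FOXL1, FOXF2 and FOXN3 were lower, against 9.61% of genes called lower. A fold change of at least 2 with an adjusted p under 0.05 was reached by 2 members, FOXF1 and TBX1, and by 3.77% of all genes tested. With edgeR and all libraries, the shares of members called were therefore near the background of the whole table. DESeq2 called 7 of the 37 members and 11.9% of all genes tested, so this nearness depends on the method. The median log2 fold change of the members was -0.03, that of all genes tested was 0.00, and the median sizes without sign were 0.20 and 0.16. In 22 of the 37 members the log2 fold change was within 0.25 of 0, and 65.9% of all genes tested lay within the same limits. The normalized counts of the groups did not overlap for 23 members (62.2%), while 61.0% of all genes tested did not overlap. Of these members, 7 were above EV, against 30.8% of all genes tested, and 16 below it, against 30.2%. With p unadjusted, 10 of the 37 members were under 0.05, as were 33.2% of all genes tested. Without EV replicate 2, 11 of 39 members passed the adjusted p, with 24.9% of all genes called, and without TET1-CD replicate 1, 4 of 39 passed, with 5.48% of all genes called.

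**Figure D2:**
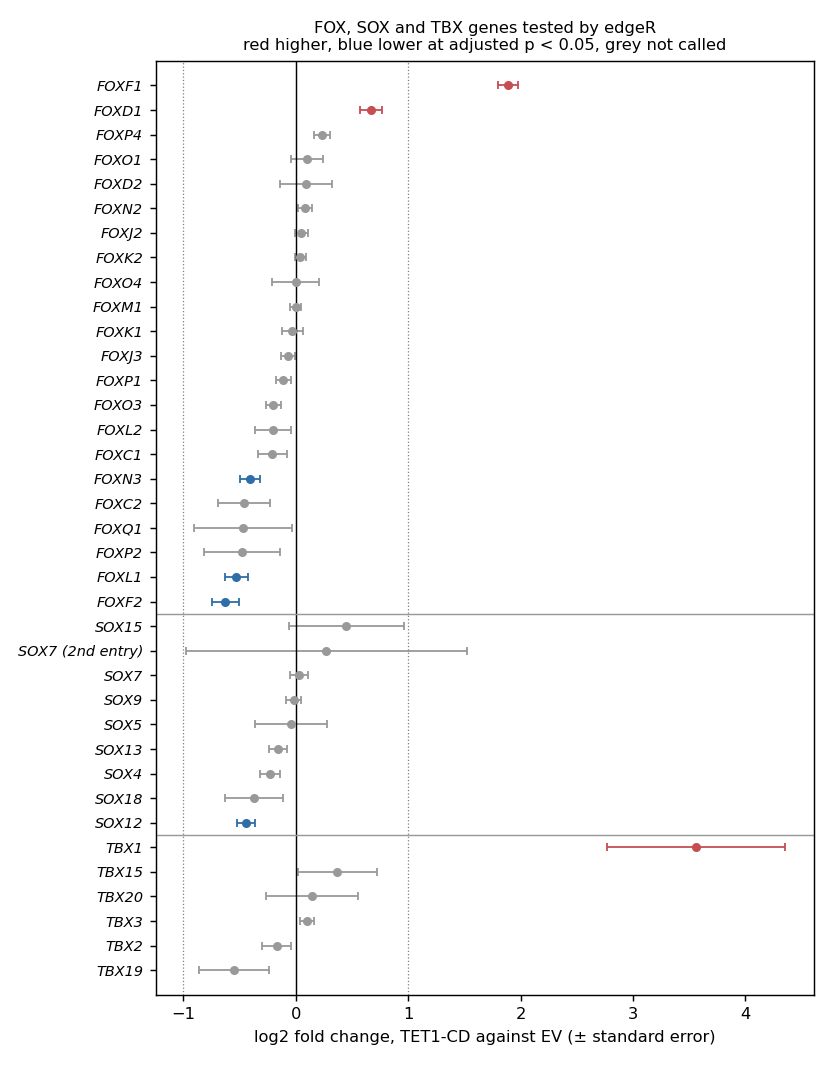
Log2 fold change of TET1-CD against EV for the 37 tested members, with edgeR's standard error as the bar, by family. Red marks the 3 members called higher, blue the 4 called lower and grey the 30 not called, and dotted lines mark a 2-fold change.

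Among members with at least 10 fragments in every library, FOXF1, a forkhead factor of lung and gut mesenchyme, had the largest fold change. FOXF1 (ENSG00000103241, GRCh37 chromosome 16 from 86544133 to 86548076, plus strand) had 184 and 160 fragments in EV against 606 and 660 in TET1-CD. Normalized counts were 171 ± 2.03 in EV and 637 ± 11.5 in TET1-CD cells (SD, n = 2), so the groups were far apart and the libraries within each nearly equal. The gene rose 3.72-fold, with a log2 fold change of 1.89 (SE 0.09, edgeR adjusted p = 1.01e-06). In FPKM it went from 3.53 and 3.57 to 13.48 and 13.16. FENDRR, the long noncoding RNA read from the opposite strand, starts 1.43 kb from FOXF1. It had 0 and 2 fragments in EV against 22 and 26 in TET1-CD, a ratio of 24.3 (exact 95% interval 6.36 to 206 for counting error). Its fitted log2 fold change was 4.43 (SE 0.75, edgeR adjusted p = 0.00309) and ranged from 3.40 without EV replicate 1 to 7.63 without EV replicate 2. The pair thus rose together, with FENDRR at a far lower level than FOXF1. The fibroblast marker COL1A1 rose in the same libraries, with a log2 fold change of 1.89 (SE 0.13, edgeR adjusted p = 1.03e-05). Its part in the FOXF1 result was not tested, and COL1A2, COL3A1, PDGFRA, DCN and LUM had between 0 and 4 fragments in each library.

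FOXF1 shares its stretch of chromosome 16 with another pair of forkhead genes, FOXC2 and FOXL1, within 71.2 kb. Their log2 fold changes were below 0. FOXL1 (ENSG00000176678, 86609974 to 86615303), a factor of the gut mesenchyme, had 582 and 576 fragments in EV against 377 and 418 in TET1-CD. Its normalized counts were 579 ± 59.8 in EV and 400 ± 2.18 in TET1-CD cells (SD, n = 2), without overlap. It fell by 0.53 on the log2 scale (SE 0.10, edgeR adjusted p = 0.00411). FOXC2, a factor of lymphatic vessels, lies 52.8 kb from FOXF1 and 7.43 kb from FOXL1. It had 112 and 68 fragments in EV against 71 and 57 in TET1-CD, with overlapping groups and a log2 fold change of -0.46 (SE 0.23, edgeR adjusted p = 0.20), or -0.68 with an adjusted p of 0.0442 without EV replicate 2. MTHFSD, a gene of no forkhead family between FOXF1 and FOXC2, had 267 and 250 fragments in EV against 185 and 197 in TET1-CD and fell by 0.42 on the log2 scale (edgeR adjusted p = 0.0263). FOXF1 and FENDRR were thus higher, and MTHFSD and FOXL1, downstream of FOXF1, were lower. Within 500 kb of FOXF1 these were the only 4 other genes tested.

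**Figure D3:**
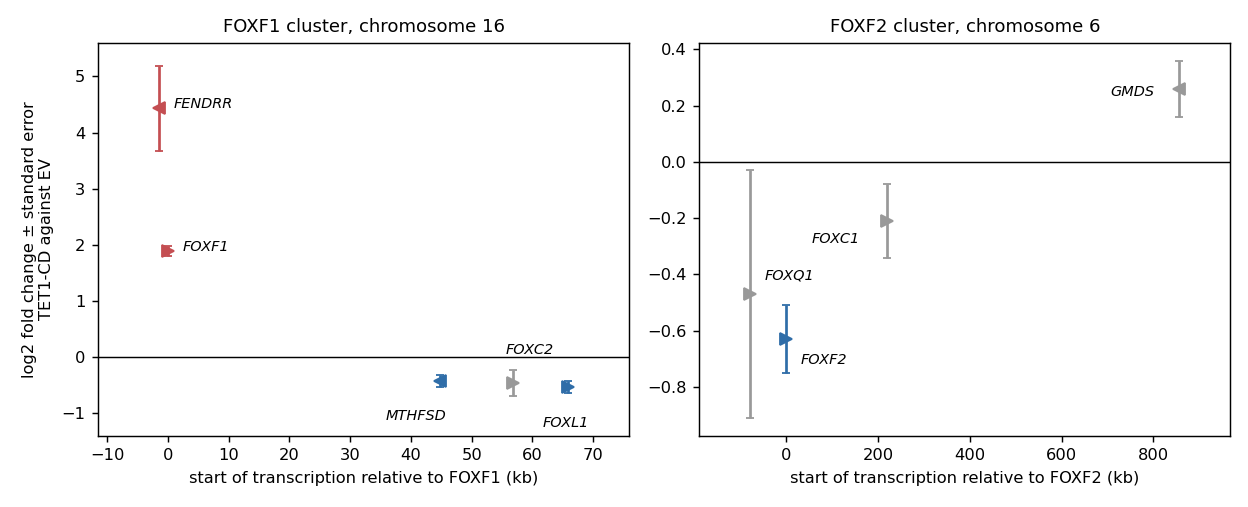
Log2 fold change with standard error of each tested gene within 500 kb, against the distance of its start from that of FOXF1 on chromosome 16 (left) or FOXF2 on chromosome 6 (right), with triangles pointing in the direction of transcription and the y axes drawn on different scales. Red is called higher, blue called lower, grey not called, and FOXF1 and FENDRR are above 0 while MTHFSD, FOXC2 and FOXL1 are below it.

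On chromosome 6 a similar group holds FOXQ1, FOXF2 and FOXC1 within 301 kb. FOXF2 (ENSG00000137273, GRCh37 1390069 to 1395832), the closest relative of FOXF1 and a factor of palate, gut and pericyte mesenchyme, moved in the opposite direction to FOXF1. It had 325 and 235 fragments in EV against 161 and 195 in TET1-CD, and the normalized counts were 277 ± 32.8 and 179 ± 10.2 (SD, n = 2). It fell by 0.63 on the log2 scale (SE 0.12, edgeR adjusted p = 0.00653), and without TET1-CD replicate 1 the value was -0.58 with an adjusted p of 0.0816. FOXC1, a factor of the eye and of vessels, had 186 and 183 fragments in EV against 147 and 170 in TET1-CD, with a log2 fold change of -0.21 (SE 0.13, edgeR adjusted p = 0.293). FOXQ1, an epithelial forkhead factor, was low, with 12 to 20 fragments in a library and a log2 fold change of -0.47 (SE 0.44, edgeR adjusted p = 0.50). All 3 genes had lower normalized counts in both TET1-CD libraries than in both EV libraries, as did 30.2% of all genes tested. For FOXQ1 this rests on 13.83 in TET1-CD replicate 1 against 13.84 in EV replicate 1, nearly a tie. FOXF2 alone of the 3 passed the test.

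Separate groups were also seen for FOXD1, a factor of the kidney stroma and the retina, which had 253 and 223 fragments in EV against 351 and 401 in TET1-CD. After normalization these were 237 ± 5.08 and 378 ± 5.94 (SD, n = 2). FOXD1 (ENSG00000251493, GRCh37 chromosome 5 from 72740654 to 72744352, minus strand) rose 1.59-fold, with a log2 fold change of 0.67 (SE 0.10, edgeR adjusted p = 0.00136). An antisense gene, RP11-79P5.2, lies inside its interval with 6.27 to 20.1 fragments, and without known strand these cannot be told apart from FOXD1. None of the other 7 genes tested within 500 kb passed. FOXD2, which has a role in the kidney as well, did not pass, with 81 and 46 fragments in EV against 67 and 66 in TET1-CD. FOXD4, of which near-identical copies exist, had 1 to 6 fragments, and reads shared among the copies make it uncertain.

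The T-box gene TBX1, needed for the pharyngeal arches and the outflow tract of the heart, was at the limit of detection in EV cells. TBX1 (ENSG00000184058, GRCh37 chromosome 22 from 19744226 to 19771116, plus strand) had 0 and 3 fragments in EV against 16 and 22 in TET1-CD. The ratio was 12.8 (exact 95% interval 4.06 to 64.8 for counting error), from 3 fragments in all against 38. In FPKM the gene had 0 and 0.08 in EV against 0.44 and 0.68 in TET1-CD, so it stayed at a low level. The fitted log2 fold change was 3.56 (SE 0.79, edgeR adjusted p = 0.0118) and depends on the prior count. It was 2.50 without EV replicate 1 (adjusted p = 0.0314) and 7.30 without EV replicate 2 (adjusted p = 0.00207). The adjusted p was 0.0681 without TET1-CD replicate 1 and 0.109 without TET1-CD replicate 2, so the call was lost without either of them. Nearly all of its fragments were assigned to ENST00000332710. FOXA2, a forkhead factor of the endoderm, had 12 and 4 fragments in EV against 0 and 3 in TET1-CD and was too low to test.

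**Figure D4:**
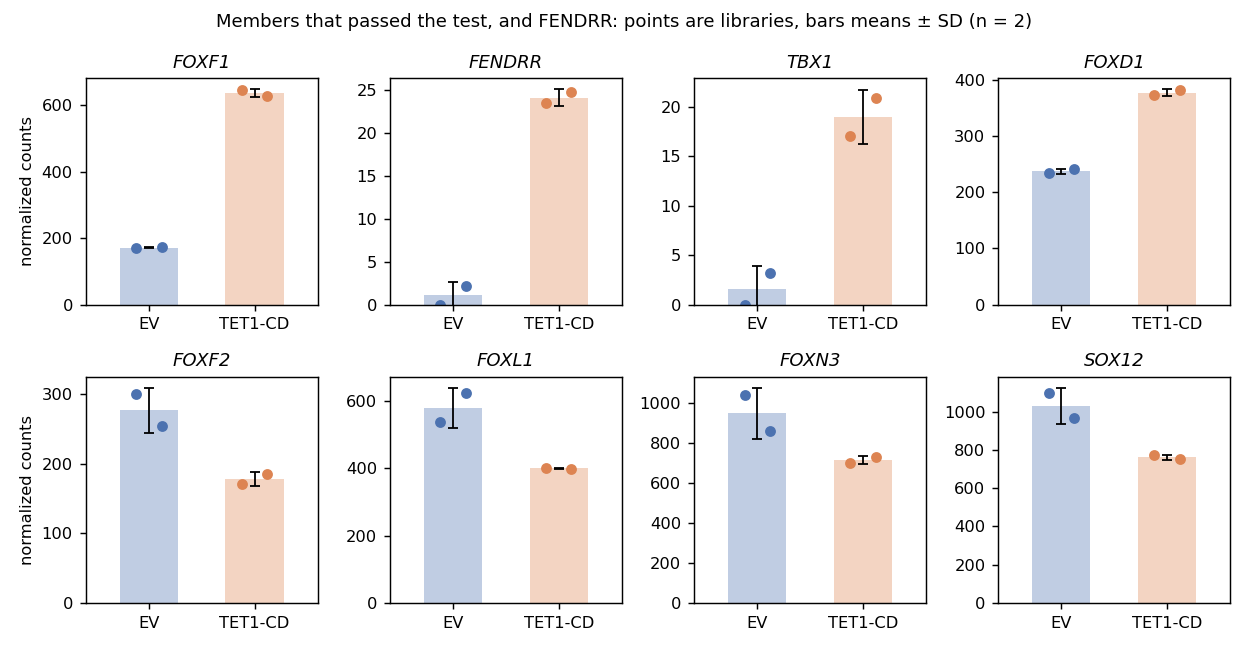
Normalized counts of the 7 members that passed the test and of FENDRR, with points for libraries, bars for means and error bars for the SD (n = 2), each panel on its own axis from 0. FOXF1, FENDRR, TBX1 and FOXD1 are higher in both TET1-CD libraries, and FOXF2, FOXL1, FOXN3 and SOX12 are lower in both.

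FOXN3 and SOX12 also fell. FOXN3 (ENSG00000053254, GRCh37 chromosome 14 from 89591215 to 90085493, minus strand), a repressor linked to cell cycle checkpoints, had 1127 and 795 fragments in EV against 660 and 768 in TET1-CD. Normalized counts were 949 ± 129 in EV and 717 ± 20.6 in TET1-CD cells (SD, n = 2), so EV replicate 1 was high and EV replicate 2 nearer to the TET1-CD libraries. The log2 fold change was -0.41 (SE 0.09, edgeR adjusted p = 0.0134), and the adjusted p was 0.141 without TET1-CD replicate 1 and 0.0618 without TET1-CD replicate 2. The value moved to -0.27 without EV replicate 1 and to -0.54 without EV replicate 2. Among its transcripts, ENST00000345097 took 26.0% and 11.7% of the fragments in EV, 0.00649% and 17.6% in TET1-CD cells, so the shares of its isoforms varied between libraries of a group. The antisense FOXN3-AS1 lies inside the gene and had 40 and 48 fragments in EV against 27 and 35 in TET1-CD (log2 fold change -0.50, SE 0.29, edgeR adjusted p = 0.258). FOXN2, the other FOXN gene expressed, had a log2 fold change of 0.08 (SE 0.06, edgeR adjusted p = 0.404).

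SOX12 (ENSG00000177732, GRCh37 chromosome 20 from 306207 to 310865, plus strand) belongs with SOX4 and SOX11 to the SOXC group, which acts in neural and mesenchymal progenitors. It had 1190 and 894 fragments in EV against 724 and 787 in TET1-CD, or 1031 ± 94.3 and 760 ± 14.8 normalized counts (SD, n = 2). The log2 fold change was -0.44 (SE 0.08, edgeR adjusted p = 0.00366). SOX12 was the only one of the 9 SOX entries tested that passed, with both SOX7 entries counted. An opposite-strand gene, RP5-1103G7.4, spans SOX12 and had 49 and 29 fragments in EV against 21 and 19 in TET1-CD. SOX4, a factor raised in many carcinomas, had 495 and 448 fragments in EV against 367 and 429 in TET1-CD. Its groups did not overlap after normalization, with a log2 fold change of -0.23 (SE 0.09, edgeR adjusted p = 0.095), or -0.28 with an adjusted p of 0.0347 without EV replicate 1. Both expressed SOXC genes were thus lower in value, and SOX12 passed.

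None of the remaining SOX genes passed. SOX9 had 1566 and 1209 fragments in EV against 1285 and 1420 in TET1-CD, and its log2 fold change was -0.02 (SE 0.07, edgeR adjusted p = 0.89). SOX13, of the SOXD group, had 654 and 540 fragments in EV against 515 and 543 in TET1-CD, with a log2 fold change of -0.16 (SE 0.08, edgeR adjusted p = 0.211). SOX7, of the SOXF group of vascular and endoderm factors, had 504 to 577 fragments in 3 libraries and 494 in TET1-CD replicate 1. Its second entry had 11.8 and 14 fragments in the first replicate of each group and 0 in the others, and whether fragments are shared between the entries was not tested. SOX18, SOX5 and SOX15 had at most 53 fragments in a library, and none of them passed. Among 16 genes listed as cartilage targets of SOX9, 8 were tested, of which COL9A2 and CYTL1 rose and COL9A3 and COL27A1 fell. The share called among all genes tested was 19.7%. COL9A2 had 55 and 57 fragments in EV against 139 and 117 in TET1-CD, while COL9A3, the gene of a partner chain in type IX collagen, had 213 and 203 in EV against 102 and 132 in TET1-CD. The listed targets therefore moved both ways around a SOX9 level that was not called.

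The broadly expressed forkhead genes had log2 fold changes near 0. FOXM1 had 3191 and 2594 fragments in EV against 2727 and 2998 in TET1-CD, with a log2 fold change of 0.00 (SE 0.05, edgeR adjusted p = 0.978). Of its transcripts, ENST00000359843 took 63.4% to 71.5% of the fragments in each library. All 23 entries of the list of its mitotic targets were tested, of which PLK1, AURKB and BUB1B rose and TOP2A fell. In the whole table, 19.7% of genes tested were called. PLK1, the mitotic kinase, had a log2 fold change of 0.21 (SE 0.05, edgeR adjusted p = 0.0215), and the median over the list was 0.08. FOXK1 and FOXK2, which control glycolysis and autophagy genes, had log2 fold changes of -0.03 (SE 0.09) and 0.04 (SE 0.05). FOXJ2 and FOXJ3 had values of 0.05 and -0.07 on the same scale, each with an SE of 0.06. In the FOXP group, FOXP4 had 661 and 576 fragments in EV against 691 and 740 in TET1-CD, without overlap after normalization, and a log2 fold change of 0.23 (SE 0.07, edgeR adjusted p = 0.0579). FOXP4 was called with library size only (adjusted p = 0.0468), with at least 10 counts in every library (0.0497) and without EV replicate 2 (0.0377), all by edgeR. FOXP1 had -0.11 (SE 0.07), while FOXP2 had 17 to 27 fragments in a library. Without EV replicate 2, FOXK1 had a log2 fold change of -0.17 (edgeR adjusted p = 0.0274). With all libraries, TMM normalization and filterByExpr, none of these FOX genes passed.

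FOXO factors are the nuclear end of insulin signalling, where AKT phosphorylates them and holds them in the cytoplasm, so their activity need not follow their RNA. FOXO3 was the most abundant, with 1020 and 860 fragments in EV against 741 and 883 in TET1-CD. Its log2 fold change was -0.20 (SE 0.07, edgeR adjusted p = 0.0687), with both TET1-CD libraries below both EV libraries after normalization. A near-identical copy, FOXO3B, had 50 to 65 fragments, and reads shared between the copies make the split uncertain. FOXO1 had a log2 fold change of 0.10 (SE 0.14) and FOXO4 one of 0.00 (SE 0.21), and FOXO6 was too low to test. No FOXO gene was called with all libraries, and without EV replicate 2 FOXO3 passed at -0.21 (edgeR adjusted p = 0.0354). The list of 26 FOXO targets was written with earlier results of these data known. The shares of all genes beside it are therefore given for scale and test nothing. Of the 26, 21 were tested, and all 21 had a log2 fold change below 0, as did 49.8% of all genes tested. Of these, 12 were called lower, against 9.61% of all genes. Their median was -0.37, against 0.00 for all genes tested. TXNIP, an inhibitor of thioredoxin and glucose uptake, had 2568 and 2355 fragments in EV against 1086 and 1173 in TET1-CD (log2 fold change -1.11, SE 0.06, edgeR adjusted p = 2.51e-06). SOD2, the mitochondrial superoxide dismutase, fell by 0.86 (SE 0.07, edgeR adjusted p = 5.47e-05), and CCNG2, a cyclin of resting cells, fell by 0.98 (SE 0.09, edgeR adjusted p = 0.000107), both on the log2 scale. Several of these genes also answer to other factors. Of the listed targets that were not tested, 3 were at 0 in all libraries, and SESN3 and PDK4 were higher in TET1-CD. SESN3 had 1 and 0 fragments in EV against 6 and 8 in TET1-CD, and PDK4 had 4 and 1 against 6 and 7.

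**Figure D5:**
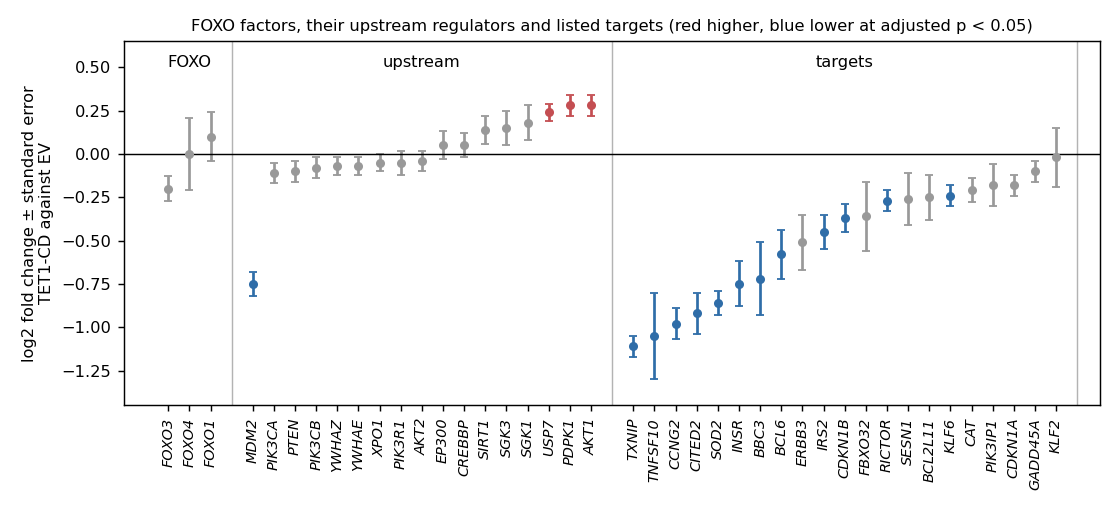
Log2 fold change of TET1-CD against EV with standard error for the FOXO genes tested, 17 listed upstream regulators and 21 listed targets, sorted within each panel, red higher and blue lower at an adjusted p under 0.05. The FOXO genes lie between -0.20 and 0.10, and the 21 tested targets, from a list written with earlier results known, all lie below 0.

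Among 17 listed regulators that act on FOXO proteins, all tested, 3 rose and 1 fell. Over the whole table, 10.0% of genes tested were called higher and 9.61% lower. Whether these regulators bear on the listed targets was not tested. AKT1, which inactivates FOXO proteins, had a log2 fold change of 0.28 (SE 0.06, edgeR adjusted p = 0.00716). PDPK1, the kinase upstream of AKT, had 0.28 (SE 0.06, edgeR adjusted p = 0.0109), and USP7, a deubiquitinase, had 0.24 (SE 0.05, edgeR adjusted p = 0.0111). MDM2, a ubiquitin ligase that also controls p53, had -0.75 (SE 0.07, edgeR adjusted p = 6.58e-05). The median over the 17 genes was -0.04.

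In the T-box family, TBX3 and TBX2 were the expressed repressors, which are known for holding down cyclin-dependent kinase inhibitors in limb and breast development. TBX3 had 1434 and 1200 fragments in EV against 1349 and 1439 in TET1-CD. Its log2 fold change was 0.10 (SE 0.06, edgeR adjusted p = 0.278). TBX2 had 215 and 204 fragments in EV against 162 and 207 in TET1-CD, with a log2 fold change of -0.17 (SE 0.13, edgeR adjusted p = 0.371). Neither was called. Of 7 genes listed as repressed by them, 5 were tested, of which GJA1 rose and NDRG1 and CDKN2B fell. Among all genes tested, 19.7% were called. NDRG1, a stress-responsive growth regulator, had 3445 and 3397 fragments in EV against 1436 and 1629 in TET1-CD (log2 fold change -1.15, SE 0.07, edgeR adjusted p = 6.42e-06). CDKN2B, a kinase inhibitor, fell by 0.62 on the log2 scale (SE 0.14, edgeR adjusted p = 0.0116), and GJA1, the connexin of gap junctions, had a log2 fold change of 0.35 (SE 0.09, edgeR adjusted p = 0.0199).

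The low T-box genes were uncertain. TBX19, a pituitary factor of the brachyury group, had 36 and 45 fragments in EV against 29 and 26 in TET1-CD, with a log2 fold change of -0.55 (SE 0.31, edgeR adjusted p = 0.249). TBX15, a factor of skeleton and fat, had 27 and 28 fragments in EV against 23 and 48 in TET1-CD, and TBX20, a heart factor, had 12 to 24 fragments in a library. The groups overlapped for both. TBX6, a factor of the somites, had 3 to 7 fragments and was not tested. Estimates for single transcripts were unstable at this level. For TBX15 the share of ENST00000369429 was 86.0% and 27.9% in EV against 3.13% and 89.3% in TET1-CD. Of the 26 tested members with several transcripts, 22 had the same leading transcript in every library, and the other 4 were TBX15, TBX19, FOXP2 and FOXO3. Values given for genes are sums over transcripts.

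Counts of called genes around the called members are read against the 19.7% of all genes tested that were called. Near FOXF1 and FOXL1, 3 of 4 genes tested within 500 kb passed in each case. Both counts include FENDRR and MTHFSD, and each includes the other called member, FOXL1 or FOXF1. They thus cover the same locus, and 1 pass in each was known beforehand, so these counts are not comparable with that share. Near FOXD1 and FOXF2, 0 of 7 and 0 of 3 passed. Near FOXN3, 1 of 5 passed and near SOX12, 2 of 11. Near TBX1, 5 of 21 passed, 4 higher and 1 lower, each with less than a 2-fold change. GNB1L, which overlaps the end of TBX1 on the opposite strand, had a log2 fold change of 0.27 (edgeR adjusted p = 0.512). FENDRR was the only tested neighbour with a fold change of at least 2 in the direction of its member.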

How the data were processed

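RNA of T24 cells was sequenced in 2 EV and 2 TET1-CD libraries after poly(A) selection or removal of rRNA, and the strand setting is not given in the sources used here. For each transcript the authors deposited an expected count, an estimated number of fragments that need not be whole, and an FPKM value, scaled to transcript length and library size. The submitters' processing notes name cutadapt 1.9.1, HISAT2 2.0.1, HTSeq 0.6.1, DESeq2 and hg19. The tool that estimated the transcript counts is not given in the sources used here. Because an estimate divides reads among overlapping or near-identical genes, counts of such genes are uncertain.

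Expected counts of all transcripts with one gene identifier were added up and rounded, and FPKM values were added likewise. TET1-CD was compared with EV by edgeR 4.0.16 (glmQLFit and glmQLFTest, TMM, filterByExpr, no block) in R 4.3.3 on all genes, with Benjamini-Hochberg adjustment over the 14573 genes tested. A standard error (SE) was taken as the size of the log2 fold change over the root of its F statistic. TMM factors were 0.993 to 1.005. Normalized counts are scaled to the mean effective library size. The replicates differed by more than sampling noise (chi-square per gene 6.41 in EV and 2.75 in TET1-CD), so none was counted as a copy. Exact 95% intervals of ratios are from the binomial distribution of fragments between groups. The scripts were tested on simulated data.

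The members and gene lists were chosen with earlier results of these data known. Named were members with an adjusted p under 0.05 or a fold change of at least 2, the 3 members with the highest mean FPKM of each family, members at 3 counts or fewer in one group and above 10 in the other, and up to 3 called genes of a list by p, or all where at most 5 were called. Further members are described by family. Alternatives were DESeq2 1.42.0, limma-voom (limma 3.58.1), RLE normalization, library size only, no filter, at least 10 counts in every library, a replicate block and the omission of each library. No table columns of other samples were found. FOXF1 and FOXL1 promoters were not analysed here, and values of some single genes are not reported here.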

Additional observations from a re-analysis of the deposited data

How the results depend on the processing

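The number of members with an adjusted p under 0.05 was 7 with edgeR, DESeq2, limma-voom, RLE normalization, no filter, at least 10 counts in every library and a replicate block, and 8 with library size only. The members were not the same throughout, since FOXP4 was gained with library size only, and FOXP4 took the place of TBX1 with at least 10 counts in every library. Leaving out 1 library gave 4 to 11, with 4 without TET1-CD replicate 1 and 11 without EV replicate 2, where FOXC2, FOXK1, FOXO3 and FOXP4 were gained, and SOX4 was gained without EV replicate 1. The number with a fold change of at least 2 as well was 2, also by unadjusted p, with 1 when 10 counts were required in every library, which removes TBX1, and 1 to 2 when a library was left out, with 1 without TET1-CD replicate 1 or 2. Over all genes, DESeq2 called 1739 and edgeR 2865 of 14573, and 832 to 3779 were called with 1 library left out. A lone sample was then assumed to vary like the other group.

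Values of single genes under alternatives were compiled for FENDRR, the called members and the members with the highest mean FPKM in each family. Of these 174 values, 165 kept their direction and their side of the threshold. The members gained under alternatives, FOXP4, FOXC2, FOXK1, FOXO3 and SOX4, were not among these genes. FOXF2 lost its call without TET1-CD replicate 1, and FOXN3 and TBX1 lost theirs without either TET1-CD library. The sign of FOXM1 changed with no filter (-0.00), without EV replicate 2 (-0.03) and without TET1-CD replicate 1 (-0.01), and that of SOX9 without EV replicate 1 (0.05), all log2 fold changes near 0. With 1 library left out, FOXM1 ranged from -0.03 to 0.03 and SOX9 from -0.09 to 0.05. The cause was not tested. FOXF1 kept a log2 fold change of 1.87 to 1.91, FOXD1 0.64 to 0.69, SOX12 -0.53 to -0.35 and FOXL1 -0.65 to -0.43, each called in every alternative.

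With a replicate block the same 7 members were called, and 3235 genes in all. The labels state no shared culture for equal numbers. Deviations of same-numbered libraries correlated at 0.007 over all genes tested and 0.217 over the 7286 with the higher counts, across genes that are not independent. Depth limits the 39 members that were not tested and the low ones, where 3 fragments are 0.148 to 0.172 CPM.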
